A study of Mus musculus with 2 samples.

Results

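The 8 genes described here move calcium and phosphate across the intestinal epithelium or sense and break down active vitamin D. They are Trpv6, S100g, Atp2b1 and Slc8a1 for calcium, Slc34a2 and Slc20a1 for phosphate, and Vdr and Cyp24a1 for vitamin D. They were chosen by name from knowledge of the pathway, and all 8 were found among the 43346 Ensembl genes of the deposited tables. The tissue was the small intestine of 1 female adult C57BL/6J mouse of 10 weeks, with no treatment or genetic change given in the labels. Poly(A) RNA was sequenced in 2 technical libraries of 1 biological replicate, called here the later library (technical replicate 2, made in 2015) and the earlier library (technical replicate 1). The labels name neither the stretch of intestine taken nor whether both libraries were made from 1 RNA extraction. Every comparison is therefore between 2 libraries of 1 animal, and no value describes a difference between mice.

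Dietary calcium enters the enterocyte through a channel in the brush border, crosses the cell bound to a small buffer protein and leaves on the blood side by a pump and a sodium exchanger. Active vitamin D, bound to its nuclear receptor, is known to raise the genes of the entry channel and the buffer, and also the gene of the enzyme that degrades the hormone. Phosphate enters with sodium through transporters of the Slc34 and Slc20 families. The calcium route is best known from the duodenum, while Slc34a2 in the mouse is known chiefly from the ileum.

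The libraries held 24509862 expected counts (later) and 28277875 (earlier). Mitochondrial genes and their nuclear copies took 21.6% of all TPM (a level corrected for transcript length and scaled to the same sum in each library) in the later library and 72.3% in the earlier. Deposited TPM of every other gene was lowered by this in the earlier library, so TPM rescaled to the same sum without those genes, called nuclear TPM, is given beside it for the 8 genes. It is used alone for the levels of markers and further pathway genes. Limits at 3 counts are in deposited TPM. The enterocyte genes Fabp2 (6695 and 11533 nuclear TPM in the later and earlier library) and Sis (1564 and 9389 nuclear TPM) were high in both. Alpi (1944 and 158.9) and Vil1 (1257 and 348.1), also enterocyte genes but picked after their values were seen, were higher in the later library. Of 6 enterocyte markers 4 were called higher in the later library and 1 in the earlier by the test described further on. Over all tested genes these shares were 40.2% and 27.5%. With the GC trend described further on removed 3 and 1 were called, against 17.5% and 17.6%. Alpi was then still called higher in the later library (log2 ratio 1.12, later over earlier), and Vil1 (-0.25) was not called. Of 5 colon markers Hoxd13, Hoxd10 and Hoxb13 had 0 counts in both. Car1 had 0 counts in the later library and 1 in the earlier, and Aqp8 had 731 and 62. Of 7 distal markers, the ileal gene Fgf15 had 0 counts in both libraries, whereas the most abundant, Slc51b, stood at 178.1 nuclear TPM in the later library and 184.0 in the earlier, Slc51a at 188.6 and 7.01, and Guca2a at 163.6 and 0.289. Fabp6, picked after its value was seen, had 1 count in the later library and 0 in the earlier. Pancreatic acinar markers were also present, all 6 of them, and summed to 13038 nuclear TPM in the later library and 7176 in the earlier. Fewer cells of a type and less RNA per cell cannot be told apart in such bulk tissue.

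S100g encodes calbindin-D9k, the cytosolic calcium buffer of the enterocyte, and was the most abundant of the 8 genes in both libraries. Its coding sequence is shown because this gene held most of the summed TPM of the 8 genes. Transcript S100g-201 has 480 bases, of which 240 bases, with the stop codon, code for 79 residues (GRCm38 chrX:162962136-162964196, minus strand, introns removed). A search for the canonical EF-hand loop, a calcium-binding stretch of 12 residues, found 1 match at residues 58 to 69, and its 36 bases are in capitals.
S100g coding sequence: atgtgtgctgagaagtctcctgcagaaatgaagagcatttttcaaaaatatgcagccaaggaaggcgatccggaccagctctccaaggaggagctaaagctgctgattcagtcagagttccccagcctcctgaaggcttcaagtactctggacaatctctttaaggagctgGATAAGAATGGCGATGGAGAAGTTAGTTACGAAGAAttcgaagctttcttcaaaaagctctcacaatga

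S100g stood at 744.4 TPM in the later library, from 4244 counts, and at 260.0 TPM in the earlier, from 2236 counts. It held 72.9% of the summed TPM of the 8 genes in the later library (1021 TPM) and 71.7% in the earlier (362.4 TPM). On nuclear TPM the libraries gave 949.6 (later) and 939.5 (earlier), so the gap in deposited TPM closed on that scale. On the TMM-scaled counts described further on, S100g was 1.22-fold higher in the later library. By TPM it ranked 157 among protein-coding genes in the later library and 155 in the earlier. The protein-coding genes with the most similar TPM pair, by distance on log2(TPM + 1) over the 2 libraries, were Rps27 (724.2 and 258.7 TPM in the later and earlier library), Epcam (681.9 and 265.2 TPM) and Rnase1 (739.6 and 289.5 TPM). S100g lies on X at 162961992 to 162964599, inside the span of Ctps2 on the opposite strand, which had 316 counts in the later library and 330 in the earlier. Reads of overlapping genes cannot be told apart where counting ignores the strand, and the setting used is not stated.

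Trpv6, the calcium channel of the brush border, was the lowest of the 7 genes with any counts. Its gene (chromosome 6, 41620624 to 41636405, minus strand) had 64 counts in the later library, against 4 in the earlier, which is 1.25 and 0.05 TPM (nuclear TPM 1.59 and 0.181). The exact 95% Poisson intervals of these counts were 49.3 to 81.7 in the later library and 1.09 to 10.2 in the earlier, and they did not overlap. TPM of S100g exceeded that of Trpv6 by 596-fold in the later library and 5200-fold in the earlier. The kidney channel gene Trpv5, a neighbour in sequence and function, had 0 counts in both. At 3 counts this is a limit of 0.0649 deposited TPM in the later library and 0.0415 in the earlier. Of the 2 annotated Trpv6 transcripts, the protein-coding Trpv6-201 held 92.8% of the gene's TPM in the later library and 47.2% in the earlier, where it rested on 2 expected counts.

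Export on the blood side is carried by Atp2b1, the plasma membrane calcium pump PMCA1, and Slc8a1, the sodium-calcium exchanger NCX1. Atp2b1 (chromosome 10, 98914406 to 99026143) stood at 36.3 TPM from 4754 counts in the later library and at 42.8 TPM from 8779 counts in the earlier. On nuclear TPM it was 46.3 in the later library, against 154.5 in the earlier. Slc8a1 (chromosome 17, 81373105 to 81738377, minus strand) stood far lower, at 1.97 TPM from 100 counts in the later library and 0.75 TPM from 60 counts in the earlier. Its nuclear TPM was 2.51 in the later library and 2.71 in the earlier. Atp2b1 therefore exceeded Slc8a1 by 18.4-fold in TPM in the later library and 57.0-fold in the earlier. All Slc8a1 counts were assigned to Slc8a1-202, which is 2877 bases long in the deposited tables and 3180 in GENCODE M21, so its TPM rests on a shorter model than the present one. Its deposited interval ran from 0.313 to 1.90 TPM in the later library and from 1.48e-05 to 0.623 in the earlier. Those of Slc8a1-201 reached 0.889 and 0.609 and those of Slc8a1-203 reached 1.04 and 0.528, so the assignment is not settled. The other models, Slc8a1-201 and Slc8a1-203, are 2913 bases long, all of them coding in M21, and reads from untranslated ends have no place in them. Slc8a1 is also a gene of muscle and nerve. The 6 smooth muscle markers summed to 809.8 nuclear TPM in the later library and 102.1 in the earlier, none of them at 0. All 6 were called higher in the later library by the test described further on, and 5 with the GC trend removed. The 6 enteric neuron and interstitial cell markers summed to 51.8 and 138.9. Of these 1 was called higher in the later library and 4 in the earlier, and 0 and 2 with the GC trend removed. Over all tested genes the shares were 40.2% and 27.5%, and 17.5% and 17.6% with the GC trend removed. The part of muscle or nerve cells in the Slc8a1 level was not tested.

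Both phosphate carriers were present at moderate levels. Slc20a1, the sodium-phosphate carrier PiT-1 (chromosome 2, 129198764 to 129211616), stood at 22.0 TPM from 921 counts in the later library and at 10.5 TPM from 625 counts in the earlier. Slc34a2, the intestinal carrier NaPi-IIb (chromosome 5, 53038081 to 53071664), stood at 18.9 TPM from 1380 counts in the later library and at 7.79 TPM from 907 counts in the earlier. Slc20a1 exceeded Slc34a2 in TPM by 1.16-fold in the later library and 1.35-fold in the earlier, although Slc34a2, the longer transcript, had more counts. On nuclear TPM Slc20a1 gave 28.1 in the later library and 38.0 in the earlier, and Slc34a2 gave 24.2 and 28.2, so both were slightly lower in the later library on that scale and higher in it on deposited TPM.

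Vdr, the vitamin D receptor (chromosome 15, 97854425 to 97910630, minus strand), was the second most abundant of the 8 genes in the later library. It stood at 196.4 TPM from 14780 counts there and at 40.6 TPM from 5015 counts in the earlier library. On nuclear TPM these were 250.5 and 146.7, in the later and earlier library. Cyp24a1 (chromosome 2, 170482708 to 170497145), whose enzyme degrades active vitamin D, was not counted in either library. An empty count still permits up to 3 counts, which here is 0.0471 deposited TPM in the later library and 0.0301 in the earlier. Deposited TPM was lowered in the earlier library, so these limits do not rank the libraries by sensitivity. The deposited interval, of unstated confidence level, had an upper bound of 0.0569 nuclear TPM in the later library and 0.107 in the earlier. Cyp24a1 is known as a strong target of the receptor, and its transcript was thus not detected in either library while the receptor's was abundant. Intervals and limits cover counting error only.

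Set in order of deposited TPM, the later library gave S100g, Vdr, Atp2b1, Slc20a1, Slc34a2, Slc8a1, Trpv6 and Cyp24a1. The earlier library gave the same order except that Atp2b1 stood just above Vdr, and the TPM of Vdr over Atp2b1 was 5.41 in the later library and 0.949 in the earlier. The ranges of deposited TPM over the 2 libraries overlapped between the neighbours Vdr and Atp2b1, between Slc20a1 and Slc34a2 and between Slc8a1 and Trpv6. They did not overlap between S100g and Vdr, between Atp2b1 and Slc20a1 or between Slc34a2 and Slc8a1. On nuclear TPM the ranges of Slc8a1 (2.51 and 2.71 in the later and earlier library) and Trpv6 (1.59 and 0.181) did not overlap. The other pairs were as on deposited TPM, with Slc20a1 and Slc34a2 barely overlapping. A level of 1 deposited TPM or more was reached by 7 of the 8 genes in the later library, by 5 in the earlier and by 5 in both. On nuclear TPM 6 genes reached that level in both, with Slc8a1 among them.

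**Figure D1:**
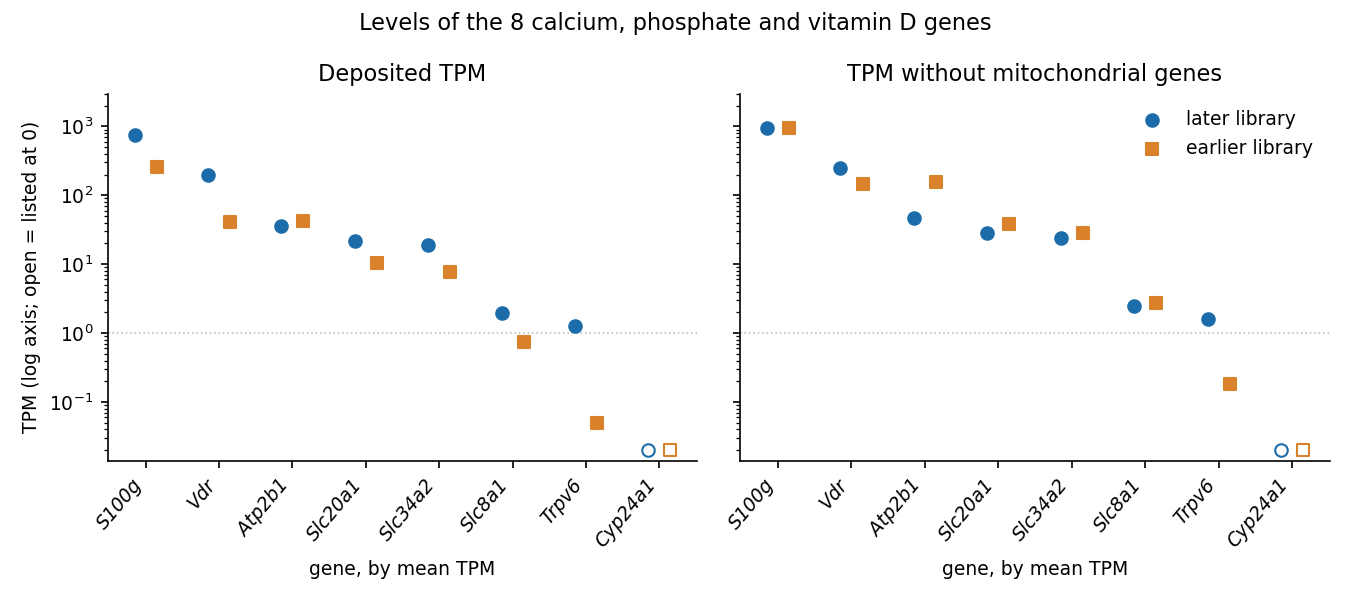
TPM of each of the 8 genes on a log axis, as deposited (left panel) and rescaled without mitochondrial genes (right panel), in the later library (blue circles) and the earlier (orange squares), with open symbols at the bottom for genes listed at 0. S100g is highest in both libraries, at 744.4 and 260.0 deposited TPM and at 949.6 and 939.5 nuclear TPM in the later and earlier library, and Trpv6 has the widest gap.

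Libraries were then compared gene by gene with a two-sided exact binomial test on counts rounded to whole numbers, scaled by TMM, a method that sets library sizes so that most genes match. A gene was called different at a Benjamini-Hochberg adjusted p under 0.05 over all 15194 genes with 20 or more counts and a difference of 2-fold or more. The test compares these 2 libraries and not conditions. Differences between them were widespread, with 40.2% of tested genes called higher in the later library and 27.5% in the earlier, and a median log2 ratio (later over earlier) of 0.26. Of the 8 genes 7 were tested, and 1 was called higher in the later library, 1 higher in the earlier and 5 in neither direction, with a median log2 ratio of 0.10. Over all tested genes 67.7% were called in 1 direction or the other, and 35.2% with the trend on GC content removed, against 2 of the 7 genes in both fits, Trpv6 in each and Atp2b1 or Vdr beside it. Whether these shares differ was not tested.

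The gene called higher in the later library was Trpv6, with a log2 ratio of 3.21 ± 0.70 (counting SE) and an adjusted p of 6.03e-10 in the exact binomial test. Taken from the counts without the prior count, its fold was 10.3 with an exact 95% interval of 3.84 to 39.0, which is wide because the earlier library held 4 counts. Several marker lists of regions and tissues, but not all, were also higher in the later library on TMM-scaled counts. Over all tested genes 40.2% were called higher in the later library and 27.5% in the earlier, with a median log2 ratio of 0.26. The 9 markers of the proximal small intestine, where Trpv6 is known to be highest, summed to 14374 nuclear TPM in the later library and 4985 in the earlier, with 5 called higher in the later library, 2 in the earlier and a median log2 ratio of 1.32 (0.02 with the trend on GC content, described further on, removed). The distal markers summed to 539.5 nuclear TPM in the later library and 193.8 in the earlier, with 3 of 4 tested called higher in the later library and a median log2 ratio of 3.67 (2.56 with that trend removed). For the acinar markers 4 of 6 were called higher in the later library, with a median log2 ratio of 3.92 (2.13 with that trend removed). Smooth muscle markers had a median of 3.22 (1.90 with that trend removed) and enterocyte markers 1.91 (0.55). The summed level of the enterocyte markers was nevertheless lower in the later library, at 14102 nuclear TPM against 22243 in the earlier. The enteric neuron and interstitial cell markers had a negative median, at -1.81 (-0.71), and adipocyte markers were at 0.39 (0.01). Over all tested genes the median with that trend removed was -0.01. The part of any of these in the Trpv6 difference was not tested.

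Atp2b1 was the gene called higher in the earlier library, with a log2 ratio of -1.52 ± 0.03 (counting SE), a fold of 0.349 and an exact 95% interval of 0.337 to 0.362. Vdr was 1.90-fold higher in the later library (interval 1.84 to 1.96), which passed the adjusted p but not the 2-fold limit. S100g was 1.22-fold higher in the later library (interval 1.16 to 1.29), with an adjusted p of 1.01e-14 in the exact binomial test, again under the 2-fold limit. For the carriers the ratios were within counting error. Slc20a1 had a log2 ratio of -0.07, with an adjusted p of 0.355 and a fold interval of 0.858 to 1.05 by the exact binomial test. Slc34a2 had a log2 ratio of -0.03, an adjusted p of 0.689 and an interval of 0.902 to 1.07 by the exact binomial test. Slc8a1, with far fewer counts, had a log2 ratio of 0.10 with an adjusted p of 0.706 and the wider fold interval of 0.773 to 1.51 by the exact binomial test, so a difference within that interval was not detectable at this depth.

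The ratio between the libraries followed the GC content of the transcripts over all genes. GC content of the 7 tested genes ran from 42.6% in Atp2b1 to 54.8% in Vdr, and the trend fitted over nuclear genes was -1.60 on the log2 scale at the GC content of Atp2b1 and 2.63 at that of Vdr. With the trend removed, 17.5% of all tested genes were called higher in the later library and 17.6% in the earlier. Trpv6 was still called higher in the later library, at a log2 ratio of 1.97 with an adjusted p of 1.65e-03 in the exact binomial test. Atp2b1 moved to 0.08 and was no longer called, and Vdr moved to -1.70 and was called higher in the earlier library. S100g moved to 0.92, Slc8a1 to 0.39, Slc34a2 to -0.83 and Slc20a1 to 0.12, none of them called. S100g, Slc34a2 and Atp2b1 passed the adjusted p (3.63e-136, 1.42e-38 and 3.38e-03 in the exact binomial test) but not the 2-fold limit.

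**Figure D2:**
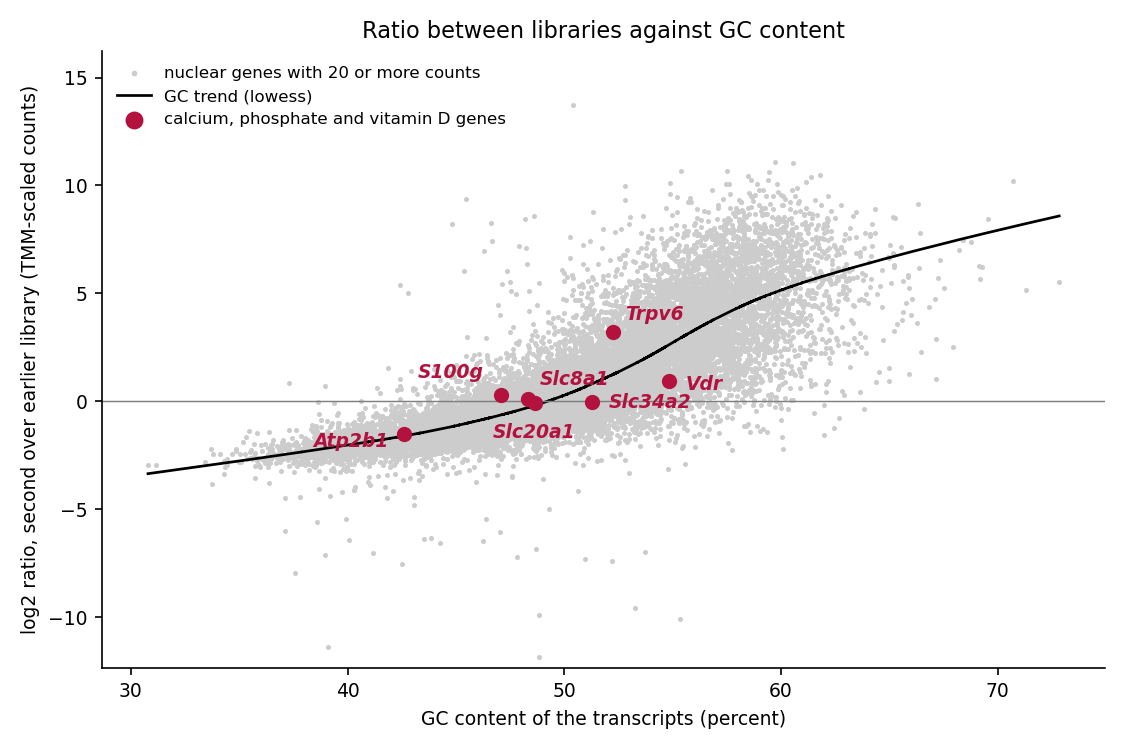
Log2 ratio of TMM-scaled counts, later over earlier library, against the GC content of each gene's transcripts in percent, for nuclear genes with 20 or more counts (grey), with the fitted trend (black line) and the 7 tested genes (red). Atp2b1 (42.6% GC, log2 ratio -1.52) lies on the trend, Trpv6 (log2 ratio 3.21) above it and Vdr (54.8% GC, log2 ratio 0.93) below it.

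The GC content used was the plain mean over a gene's transcripts, and for Vdr this mean is made largely of short transcripts that were hardly seen. Vdr-201, at 52.4% GC, held 94.6% of the gene's TPM in the later library and 99.9% in the earlier. With GC content weighted by the TPM of each transcript, an alternative added after the values were seen, Vdr moved to -0.54 and was not called. It passed the adjusted p (6.73e-106 in the exact binomial test) but not the 2-fold limit. Under that weighting 14.5% of all tested genes were called higher in the later library and 13.6% in the earlier. Trpv6 then had a log2 ratio of 1.41 with an adjusted p of 0.0451 in the exact binomial test, S100g 0.81, Slc8a1 0.42, Slc34a2 -0.29, Slc20a1 0.05 and Atp2b1 0.03. S100g and Slc34a2 again passed the adjusted p (2.76e-106 and 1.04e-05 in the exact binomial test) but not the 2-fold limit. The Atp2b1 difference was thus lost, with an adjusted p of 0.324 in the exact binomial test under the weighting, and the Vdr difference changed direction with the treatment of GC content. Trpv6, S100g and Slc8a1 had positive ratios in all of these fits.

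**Figure D3:**
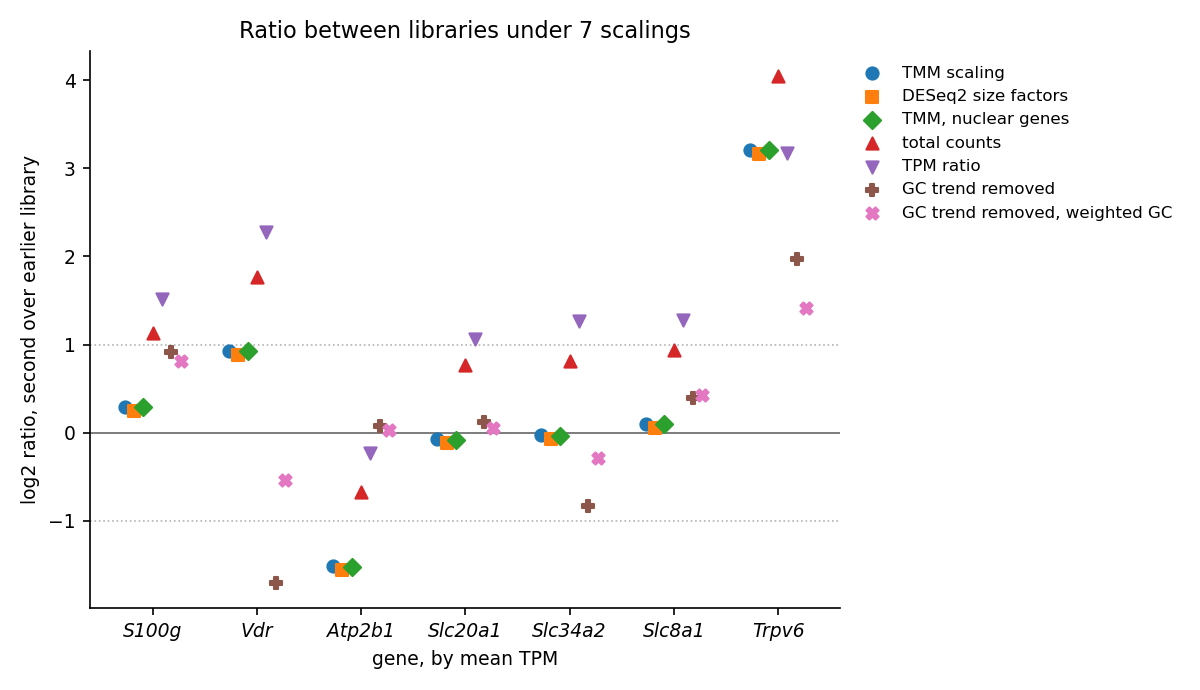
Log2 ratio, later over earlier library, of each of the 7 tested genes under 7 scalings, with dotted lines at the 2-fold limit. Trpv6 lies above the limit in all 7, Vdr runs from 2.27 (ratio of TPM) to -1.70 (GC trend removed), and Atp2b1 from -1.56 (DESeq2 size factors) to 0.08 (GC trend removed).

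Slc20a1 was the only one of the 8 genes with more than 2 transcripts at 1 TPM or more in either library, 5 of 8, and its transcripts were shared out differently in the 2 libraries. Slc20a1-201, a protein-coding transcript, held 49.9% of the gene's TPM in the later library and 5.23% in the earlier, which is 11.0 and 0.55 TPM. Slc20a1-202, also protein-coding, held 6.37% in the later library and 39.4% in the earlier, which is 1.40 and 4.14 TPM. For Slc20a1-201 the deposited intervals, whose confidence level the files do not state, ran from 7.68 to 12.1 TPM in the later library and from 0.0779 to 1.66 TPM in the earlier, and did not overlap. Those of Slc20a1-202 ran from 0.0469 to 3.89 TPM in the later library and from 2.75 to 4.63 TPM in the earlier, and did overlap. On nuclear TPM the intervals did not overlap for either transcript. They ran from 9.79 to 15.4 in the later library and 0.282 to 6.00 in the earlier for Slc20a1-201, and from 0.0598 to 4.97 and 9.95 to 16.7 for Slc20a1-202.

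These 2 coding transcripts differ mainly at their start, and a further coding transcript, Slc20a1-208, had 0 counts in both libraries. Slc20a1-201 begins with an exon of 229 bases (chromosome 2, 129198764 to 129198992, 62.4% GC), and Slc20a1-202 begins with 139 bases of its own (129199310 to 129199448, 61.9% GC). After that they are identical over 3080 bases at 47.4% GC, so reads of that stretch cannot be told apart between them. Slc20a1-204, Slc20a1-205 and Slc20a1-207 also begin within the first exon of Slc20a1-201, at 129198801 or 129198803. That exon therefore does not mark Slc20a1-201 alone, and Slc20a1-205 stood at 3.60 TPM in the later library and 2.71 in the earlier. The shares of Slc20a1-201 are thus not shares of that start. The first exon of Slc20a1-201 lies inside the span of Gm4430 on the opposite strand, which had 17 counts in the later library and 33 in the earlier, and the strand setting of the counting is not stated. Of the other transcripts, the intron-retaining Slc20a1-203 held 22.1% in the later library and 8.16% in the earlier, the processed transcript Slc20a1-205 16.4% and 25.8%, and the intron-retaining Slc20a1-206 2.52% and 15.3%. Slc34a2-201 held 95.6% of its gene in the later library and 97.8% in the earlier, and S100g and Atp2b1 have 1 transcript each in the tables.

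**Figure D4:**
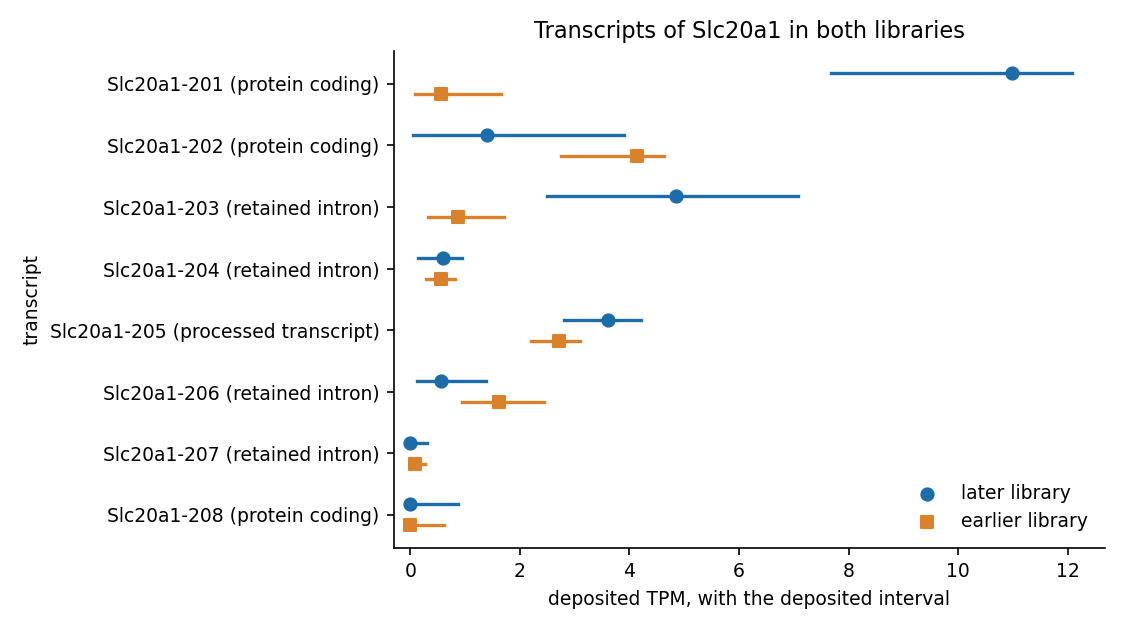
Deposited TPM (points) and deposited interval (lines) of the 8 Slc20a1 transcripts in the later library (blue circles) and the earlier (orange squares). Slc20a1-201 is at 11.0 TPM in the later library and 0.55 TPM in the earlier with intervals that do not meet, while those of Slc20a1-202 overlap on deposited TPM and not on nuclear TPM (0.0598 to 4.97 and 9.95 to 16.7).

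The vitamin D receptor binds, with a retinoid X receptor, to pairs of 6-base half-sites in direct repeat with 3 bases between them. The 250 bases before the annotated start were searched in RefSeq windows (GRCm38.p6), of which 9 belonged to 7 of the 8 genes, on either strand. Cyp24a1 had no window and was not searched. The half-sites searched were AGGTCA itself, then the variant known as AGTTCA, another written GGGTCA and last the form GGTTCA. None of the 9 windows held the exact direct repeat of any of these half-sites, and 0.0396% of all 32817 windows held it. With up to 2 mismatches over both half-sites 1 of the 9 windows held it, that of Slc20a1, and 16.0% of all windows did. A single half-site was in 5 of the 9 windows, against 38.6% of all windows. The windows of the calcium channel and the calcium buffer are shown as the textbook targets of the receptor, with half-sites in capitals, 3 before S100g and 2 before Trpv6. They are printed on the minus strand, 5′ to 3′ along the gene, at chrX:162964600-162964849 and chr6:41636406-41636655.
S100g upstream: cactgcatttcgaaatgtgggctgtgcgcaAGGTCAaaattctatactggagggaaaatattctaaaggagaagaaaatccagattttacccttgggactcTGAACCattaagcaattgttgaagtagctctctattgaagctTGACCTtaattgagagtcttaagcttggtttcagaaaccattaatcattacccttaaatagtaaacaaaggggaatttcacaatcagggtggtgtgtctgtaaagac
Trpv6 upstream: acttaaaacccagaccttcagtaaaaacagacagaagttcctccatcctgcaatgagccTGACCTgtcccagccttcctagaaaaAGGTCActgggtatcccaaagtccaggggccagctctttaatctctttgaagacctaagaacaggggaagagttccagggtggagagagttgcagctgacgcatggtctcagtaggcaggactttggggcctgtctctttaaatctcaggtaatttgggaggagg

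A match is a description of the letters and not a site of binding, and an absent match says only that the letters are not in this window. The upstream GC content was 38.4% before S100g and 49.6% before Trpv6, against a median of 52.4% over all windows.

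A further 56 genes of calcium, phosphate and vitamin D handling were set beside the 8, and all 56 were in the tables. Of these 42 were tested, and 16 were called higher in the later library, 8 higher in the earlier and 18 in neither direction, with a median log2 ratio of 0.13, against 40.2%, 27.5% and a median of 0.26 over all genes. With the GC trend removed 7 were called higher in each library, against 17.5% in the later library and 17.6% in the earlier over all genes. Levels of these further genes are in nuclear TPM. Genes named here are the most abundant of each list or at 0 counts in both libraries, and any other was picked after its value was seen.

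In the calcium entry and buffering list 3 of 9 tested genes were called higher in the later library and 3 in the earlier. With the GC trend removed 3 were called higher in the later library and 1 in the earlier. Calm2, a calmodulin gene, stood at 576.2 in the later library and 1764 in the earlier, and was called higher in the earlier library, but not with the GC trend removed. Anxa2, whose annexin binds the channel's partner S100A10, stood at 694.1 in the later library and 120.8 in the earlier, with a log2 ratio of 3.30. Calb1, the larger calbindin of the kidney, was picked after its value was seen and had 0 counts in the later library and 7 in the earlier.

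Among 11 further genes of calcium export and store pumps, 5 of 9 tested were called higher in the later library and 1 in the earlier, with a median log2 ratio of 1.74. With the GC trend removed this became 1 and 2, with a median of -0.41. The store pump Atp2a2 stood at 97.0 in the later library and 149.2 in the earlier, Atp2a3 at 54.9 and 23.6, and the Golgi pump Atp2c1 at 26.4 and 73.5. The paralogs of the 2 export genes, picked after their values were seen, were all lower than Atp2b1. Atp2b4 stood at 10.0 in the later library and 13.8 in the earlier, Slc8a3 had 84 counts in the later library and 12 in the earlier, and Atp2b2, Atp2b3 and Slc8a2 stood at under 1 in both. Of the claudins of the paracellular calcium route, Cldn15 stood at 625.8 in the later library and 93.6 in the earlier, and Cldn12 at 23.0 and 82.7. Cldn2 had 1265 counts in the later library and 931 in the earlier and was called in neither direction.

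Other phosphate genes lay on both sides of Slc20a1 and Slc34a2 in level. Ankh, which exports ATP and pyrophosphate, stood at 60.1 in the later library and 55.3 in the earlier, the phosphate exporter Xpr1 at 18.5 and 57.8, and the PiT-2 gene Slc20a2 at 11.9 and 5.89. Of 4 tested genes in this list 1 was called higher in the later library (Slc20a2, log2 ratio 1.23) and 1 in the earlier (Xpr1, log2 ratio -1.50). Neither was called with the GC trend removed (-0.51 for Slc20a2 and 0.06 for Xpr1). The renal carriers, picked after their values were seen, were near 0, Slc34a1 with 8 counts in the later library and 1 in the earlier and Slc34a3 with 8 and 0.

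Of the vitamin D handling genes and receptor partners, Cyp27a1, Rxra and Cubn were the most abundant by mean deposited TPM. Rxra, a retinoid X receptor, stood at 76.4 in the later library and 5.49 in the earlier, and Cyp27a1, a vitamin D 25-hydroxylase, at 77.4 and 12.8. Their log2 ratios were 3.87 and 2.63, against 0.93 for Vdr, and with the GC trend removed they were -0.75 and 1.03, against -1.70. Cubn, an uptake receptor that also takes up the vitamin D carrier protein, stood at 59.5 in the later library and 105.7 in the earlier. Cyp27b1, whose enzyme makes active vitamin D, was picked after its value was seen and had 3 counts in the later library and 0 in the earlier. In this list 3 of 9 tested genes were called higher in the later library and 1 in the earlier, and with the GC trend removed 2 and 1.

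Genes reported elsewhere as targets of the receptor were detected, in contrast to Cyp24a1, though none is a target of this receptor alone. Cyp3a11 stood at 2935 in the later library and 12346 in the earlier, Cdkn1a at 146.1 and 73.6, and Abcb1a at 106.9 and 156.6. Of 4 such genes 1 was called higher in the later library (Cdkn1a, log2 ratio 1.19) and 1 in the earlier (Cyp3a11, log2 ratio -1.85). With the GC trend removed Cyp3a11 moved to 0.02 and was not called. The hormone genes Pth and Fgf23 and the calcitonin receptor gene Calcr had 0 counts in both libraries. Of other receptor genes, Fgfr1 stood at 7.05 in the later library and 1.48 in the earlier, Pth1r at 1.93 and 0.0723 and the co-receptor Klb at 0.536 and 0.506. With the GC trend removed Atp2a3, Cdkn1a and Fgfr1, called higher in the later library before, were called higher in the earlier.

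**Figure D5:**
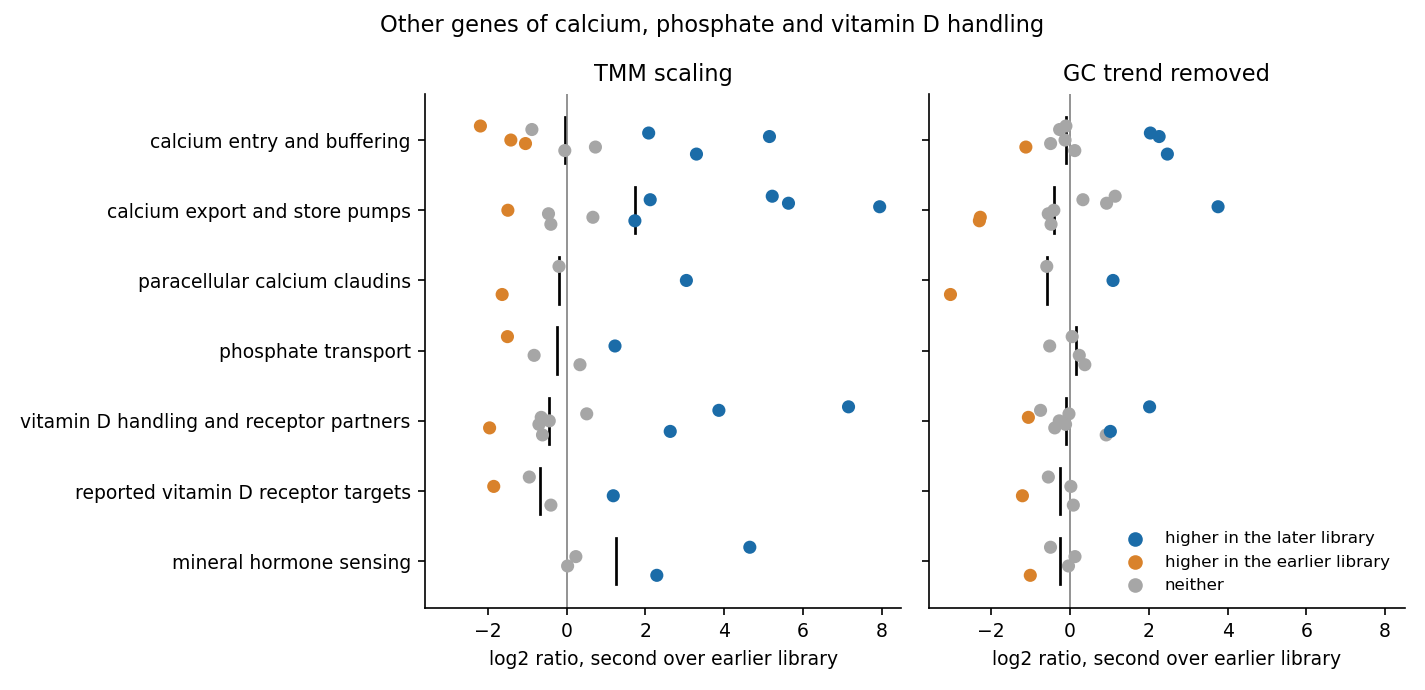
Log2 ratio, later over earlier library, of the 42 tested genes of 7 lists of calcium, phosphate and vitamin D handling, on TMM-scaled counts (left panel) and with the GC trend removed (right panel), coloured by call, with a black bar at each list's median. On TMM-scaled counts 16 genes are called higher in the later library and 8 in the earlier, and with the trend removed 7 in each.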

How the data were processed

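Poly(A) RNA of 1 mouse small intestine was measured in 2 technical libraries. Per the file headers, the deposited gene and transcript tables follow the layout of RSEM; notes beside them name mm10 and annotation M4. For the aligner, the quantifier's version, the filters and the strand setting, "not given in the sources used here" applies. Deposited expected counts are estimates that need not be whole and were rounded for tests. Deposited TPM are corrected for effective length, deposited FPKM served 1 alternative, and deposited isoform shares are the percent of a gene's TPM. Entries for spike-ins and tRNA (26345, all 0) were left out.

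Symbols, positions and GC content were looked up in GENCODE M21 (same assembly) by Ensembl identifier, matching 42462 and 42721 of 43346 genes. Ankh is listed there as Ank. BLAST 2.17.0 (95% identity over 100 bases) marked 11 nuclear copies of mitochondrial genes. With 1 library a side edgeR's quasi-likelihood test had no residual degrees of freedom and was not used, so each gene with 20 or more counts had a two-sided exact binomial test on TMM-scaled library sizes (edgeR 4.0.16, 0.5 prior counts), tested on simulated data. With 1 library a side, p-values cover the counting error of reads only. The labels name no molecular identifiers, so reads copied from 1 molecule could not be told apart. The GC trend was a lowess of span 0.3 (statsmodels 0.14.6). The named genes were the 8, the 3 most abundant of each list, members at 0 counts in both libraries, the 3 genes nearest to S100g and transcripts with a share of 10% or more. 1 gene that the rule names is not reported here. Members and lists were chosen with earlier results of these data known. Alternatives were DESeq2 1.42.0 size factors, total counts, nuclear genes only, a minimum of 1 count, TPM ratios with a pseudocount of 0.1 and removal of the GC trend.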

Additional observations from a re-analysis of the deposited data

How the results depend on the processing

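Trpv6 kept its direction in every alternative run, with log2 ratios (later over earlier library) of 1.41 to 4.05, and its call in each that has a test, with an adjusted p of 0.0451 by the exact binomial test where the ratio was lowest, and its level of 1.25 TPM rests on the later library. Removing the GC trend reversed Vdr (-1.70, and -0.54 with GC content weighted by transcript TPM, where it was not called) and brought Atp2b1 close to 0 (0.0808, and 0.0300 weighted). Slc34a2 and Slc20a1, near 0 on TMM-scaled counts, became positive with total counts (0.81 and 0.77) and on the ratio of TPM (1.27 and 1.06). On that last scale the median of all tested genes shifted by 1.15 on the log2 scale, against 0.84 with total counts. With total counts 3 of the genes were called higher in the later library and 0 in the earlier, and with the ratio of TPM, which has no test, 6 and 0 passed the 2-fold limit. With weighted GC content 0 were called higher in the earlier library. The 16 further pathway genes called higher in the later library became 7 with the GC trend removed. The cause of these changes was not tested. DESeq2 size factors, nuclear genes only and a minimum of 1 count changed none of these counts where they were run. Using a single library, 5 to 7 of the 8 genes reached 1 TPM, and Slc20a1-201 held 5.23% to 49.9% of its gene. No paired analysis was possible because both libraries belong to 1 group. Depth limits Trpv6, Slc8a1 and Cyp24a1 most.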
